A study of Mus musculus with 11 samples.

Results

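Endothelial cells line the vessels of the brain and of brain tumours, and this report follows 36 genes that mark them or their state, out of 50686 genes in the count tables. The members were chosen by symbol, as genes known from endothelial biology. They comprised 9 VEGF, angiopoietin and guidance receptors, 7 junction and surface proteins, 7 barrier and transport proteins, 3 transcription factors, 5 secreted proteins or enzymes, 3 inducible adhesion molecules and 2 Ly6 surface proteins.

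The libraries came from tumours of GL261, a glioma cell line of the mouse that was injected into the brain of C57BL/6 mice. All mice carried the floxed Rheb1 gene and received tamoxifen 3 weeks before injection. They were injected at 6 weeks of age, and samples were collected 3 weeks after tumour initiation. Cx3cr1-Rheb1 Δ/Δ mice, labelled Rheb1 KO, also carried a tamoxifen-inducible Cre in the Cx3cr1 locus, which is active in microglia and in some macrophages derived from the bone marrow, whereas Rheb1 fl/fl mice, labelled WT, had no Cre. Cre was thus not directed at endothelial cells. Bulk tumour RNA, scraped from fixed and embedded sections, gave 3 libraries of Cx3cr1-Rheb1 Δ/Δ tumours (replicates 26, 36 and 37) and 3 of Rheb1 fl/fl tumours (replicates 35, 38 and 110). Tumour-associated microglia (TAM-MG), sorted alive as CD11b+ CD45low cells, gave 3 Cx3cr1-Rheb1 Δ/Δ libraries (replicates 54, 63 and 65) and 2 Rheb1 fl/fl libraries (replicates 74 and 78). The comparison of genotypes in bulk libraries asks how whole tumours differ when Rheb1, an activator of mTORC1, is deleted in these myeloid cells. Bulk libraries include the targeted cells themselves. The sorted cells are used here to see which vascular transcripts also occur in TAM-MG.

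Vessel growth is driven by VEGF, which acts on the receptors encoded by Kdr, Flt1 and Flt4, and vessels are stabilised by angiopoietin signalling through Tek and Tie1. Brain endothelium is sealed by tight junction proteins such as claudin-5 and carries a dedicated set of transporters, and the vessels of gliomas often lose these features and gain fenestrations, which Plvap marks. Endothelium exposed to inflammatory cytokines displays the adhesion molecules VCAM-1, ICAM-1 and E-selectin, which let leukocytes attach and cross.

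Total counts ran from 14940787 to 21991348 in bulk libraries and from 20765767 to 29947977 in TAM-MG libraries. Rheb, the targeted gene, had 225, 125 and 146 CPM (counts relative to library size, with the TMM scaling of edgeR) in Cx3cr1-Rheb1 Δ/Δ tumours, against 348, 235 and 329 CPM in Rheb1 fl/fl tumours. In TAM-MG it had 67.8, 70.0 and 71.2 CPM in Cx3cr1-Rheb1 Δ/Δ cells, against 86.5 and 164 CPM in Rheb1 fl/fl cells. Counts are for the gene as a whole, of which only exon 3 is deleted, so they check the labels only in part. In 1 bulk library, Rheb1 fl/fl replicate 35, Xist reached 10643 counts and the Y-linked Ddx3y was not counted. For Kdr, Cd34, Icam2, Vwf, Egfl7 and Nos3 the value without this library is given too. Other members may also have moved without it and were not singled out in this way. The bulk tumours also held neuron and astrocyte transcripts, and vessels of the tumour and of adjoining brain cannot be told apart in these libraries.

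The members were first examined in bulk tumours. In all, 35 of 36 members had enough counts to be tested, and Sele was left out with 5, 8 and 0 counts in Cx3cr1-Rheb1 Δ/Δ tumours, against 42, 34 and 2 in Rheb1 fl/fl tumours. Passing the test was defined as a Benjamini-Hochberg adjusted p under 0.05, over all 17028 genes tested, with a difference of at least 1.5-fold. By the quasi-likelihood test of edgeR 0 members passed, as did 0 of all genes (0%). At an unadjusted p under 0.05 there were 5 members with a lower level in the tumours of Cx3cr1-Rheb1 Δ/Δ mice, as had 5.19% of all genes, and 2 with a higher level, as had 3.82% of all genes. The likelihood ratio test of edgeR, which the study used, does not take account of the uncertainty of the estimated dispersion. It called 3 members lower (Tinagl1, Ly6a and Icam2; 1.53% of all genes) and 0 higher (0.722% of all genes), and DESeq2 also called 3 lower (Tinagl1, Ly6a and Sox18; 1.94% of all genes). The genotypes did not overlap in 8 members: in 6 the Cx3cr1-Rheb1 Δ/Δ tumours were all lower, as in 9.23% of all genes, and in 2 they were all higher, as in 7.82% of all genes. Icam2 and Sox18 had enough counts to be tested only through the Rheb1 fl/fl tumours, where they were higher. Their calls and their separation rest on this selection. In bulk tissue, fewer cells of a type and less RNA per cell cannot be told apart.

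Tinagl1 had the smallest p of the members. It encodes a secreted, matrix-associated glycoprotein (lipocalin-7), and its gene is on chromosome 4 (GRCm38, 130164454 to 130175122, minus strand). Its level was 58.0, 54.9 and 44.8 CPM in Cx3cr1-Rheb1 Δ/Δ tumours, against 184, 239 and 168 CPM in Rheb1 fl/fl tumours. The groups were well apart, and no library stood out within either. The log2 fold change was -1.91 ± 0.31 (SE), with an adjusted p of 0.103 by the quasi-likelihood test and 7.09e-05 by the likelihood ratio test. A second measure of the same libraries, length-corrected TPM estimated by Salmon, gave 100, 65.2 and 53.5 TPM in Cx3cr1-Rheb1 Δ/Δ tumours, against 256, 339 and 300 TPM in Rheb1 fl/fl tumours. The quasi-likelihood call depended on which genes entered the fit. Without a filter on low counts the adjusted p was 0.015, and with only genes that had 10 counts in every library it was 0.018. Across the libraries left out in turn the fold change stayed between -2.03 and -1.77 on the log2 scale, without a call.

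Ly6a, which encodes Sca-1, a surface protein of brain endothelium that interferon also induces in other cells, was the second such member. It had 67.9, 77.7 and 131 CPM in Cx3cr1-Rheb1 Δ/Δ tumours, against 346, 222 and 344 CPM in Rheb1 fl/fl tumours. All Rheb1 fl/fl tumours were above all Cx3cr1-Rheb1 Δ/Δ tumours, of which replicate 37 was the highest. The log2 fold change was -1.72 ± 0.35 (SE), with an adjusted p of 0.154 by the quasi-likelihood test and 0.00207 by the likelihood ratio test. As for Tinagl1, an adjusted p under the threshold came without a filter (0.0308) and with the stricter filter (0.0339). Ly6c1, another Ly6 surface protein of capillary endothelium, had 15.5, 52.8 and 18.2 CPM in Cx3cr1-Rheb1 Δ/Δ tumours, against 58.8, 27.8 and 71.6 CPM in Rheb1 fl/fl tumours. Its groups overlapped (log2 fold change -0.87 ± 0.58, SE, adjusted p = 0.709 in edgeR), and reads of the near-identical Ly6c2 may be counted with it or lost.

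The inducible adhesion molecules were next considered. Vcam1, the endothelial ligand of the integrin VLA-4, had 20.4, 61.0 and 37.6 CPM in Cx3cr1-Rheb1 Δ/Δ tumours, against 63.7, 61.7 and 137 CPM in Rheb1 fl/fl tumours. The groups did not overlap, but replicate 36 of the Cx3cr1-Rheb1 Δ/Δ tumours was within 1 CPM of the lowest Rheb1 fl/fl tumour. The log2 fold change was -1.14 ± 0.49 (SE; adjusted p = 0.522 in edgeR). Icam1, the ligand of LFA-1 on leukocytes, had 1.97, 2.43 and 3.82 CPM in Cx3cr1-Rheb1 Δ/Δ tumours, against 6.34, 12.6 and 11.9 CPM in Rheb1 fl/fl tumours. Its log2 fold change was -1.90 ± 1.07 (SE; adjusted p = 0.65 in edgeR), with few counts and a wide error. Both genes kept their sign under each of the 14 alternatives run, with adjusted p between 0.284 and 0.841 for Vcam1 and between 0.386 and 0.817 for Icam1. In TPM, Icam1 had 1.27, 9.62 and 4.53 in Cx3cr1-Rheb1 Δ/Δ tumours, against 27.3, 9.40 and 11.4 in Rheb1 fl/fl tumours, so that its groups overlapped in this measure. Vcam1 had 2.90, 8.96 and 5.01 TPM in Cx3cr1-Rheb1 Δ/Δ tumours, against 9.44, 9.20 and 16.9 TPM in Rheb1 fl/fl tumours, which did not overlap. Sele, the third of the group, is given above by its counts.

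**Figure D1:**
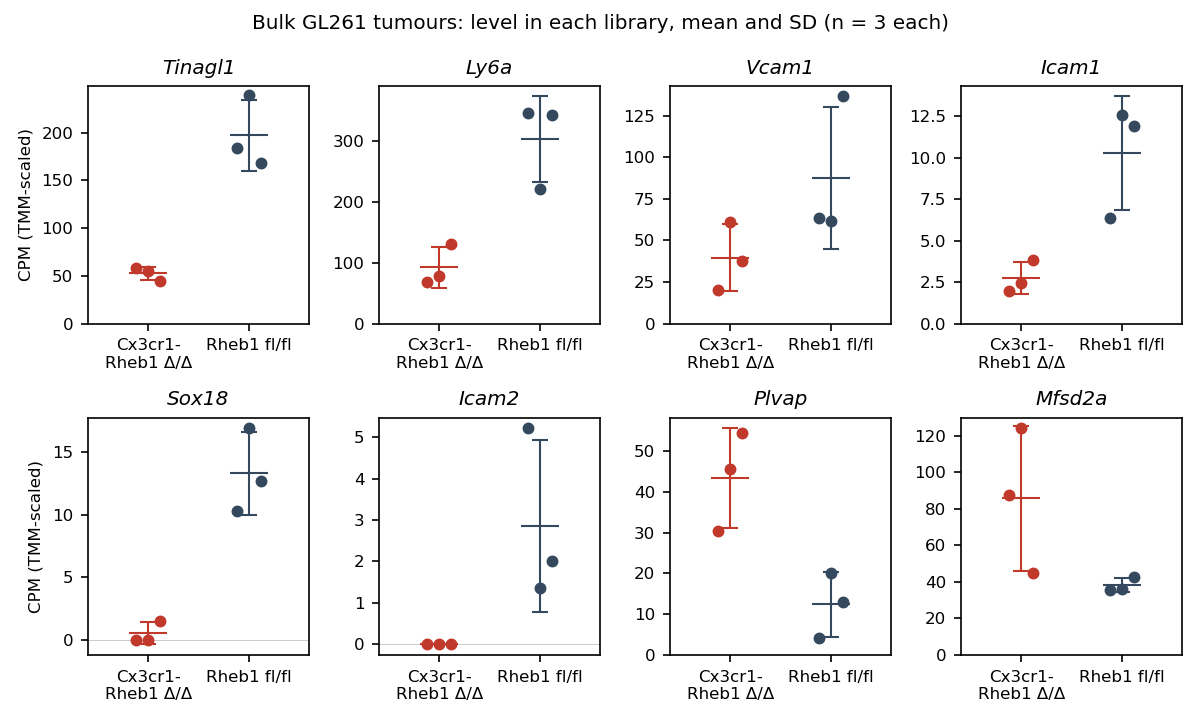
Level of 8 vascular genes in each bulk tumour library, in TMM-scaled CPM on the vertical axis, with Cx3cr1-Rheb1 Δ/Δ tumours (red) and Rheb1 fl/fl tumours (dark) side by side; points are libraries, and the horizontal mark and bars give the mean and SD of 3 libraries. In Tinagl1, Ly6a, Vcam1, Icam1, Sox18 and Icam2 all Cx3cr1-Rheb1 Δ/Δ tumours lie below all Rheb1 fl/fl tumours, and in Plvap and Mfsd2a they lie above.

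The promoters of Tinagl1 and Icam1 are shown because the first had the smallest p among the members and the second is a classical cytokine-responsive promoter. Each run holds the 250 bases before the RefSeq start (GRCm38.p6), on the strand of the gene. For Tinagl1 the coordinates are chr4:130175123-130175372 (minus strand), and for Icam1 they are chr9:21015690-21015939 (plus strand). Capitals mark the motifs that were searched on both strands: the interferon-gamma-activated site TTCNNNGAA, the interferon-stimulated response element GAAANNGAAA and the NF-κB consensus GGGRNNYYCC. N stands for any base, R for A or G and Y for C or T. Only exact matches to these letters were marked.
Tinagl1: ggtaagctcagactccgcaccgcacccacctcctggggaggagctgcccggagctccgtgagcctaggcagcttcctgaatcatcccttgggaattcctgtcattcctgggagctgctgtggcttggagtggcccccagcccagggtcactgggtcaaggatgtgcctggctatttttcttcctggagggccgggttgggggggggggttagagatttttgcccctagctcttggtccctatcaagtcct
Icam1: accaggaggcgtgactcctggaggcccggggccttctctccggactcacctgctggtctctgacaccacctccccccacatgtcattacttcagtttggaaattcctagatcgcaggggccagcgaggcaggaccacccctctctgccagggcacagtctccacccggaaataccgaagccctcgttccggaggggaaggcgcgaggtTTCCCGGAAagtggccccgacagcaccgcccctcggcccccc

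The Icam1 window held 1 TTCNNNGAA match, from base -42 to base -34 before the start, and the Tinagl1 window held no exact match to the 3 motifs. Close variants of the NF-κB consensus were not counted, among them tggaaattcc in the Icam1 window and gggaattcct in the Tinagl1 window. The search therefore does not show that a promoter lacks an NF-κB site. Promoters of 22 of the 36 members were matched by symbol. TTCNNNGAA was present in 2 of these 22 (Sele and Icam1), as in 7.18% of 27025 promoters. An exact match to the NF-κB consensus was present in 2 (Kdr and Flt1), as in 7.01% of promoters. GAAANNGAAA was present in 0 of the 22, and in 3.04% of promoters.

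Among the transcription factors, Sox18, which acts in vascular and lymphatic development, was at 0, 0 and 1.52 CPM in Cx3cr1-Rheb1 Δ/Δ tumours, against 10.3, 16.9 and 12.7 CPM in Rheb1 fl/fl tumours. Its counts were 0, 0 and 29 in Cx3cr1-Rheb1 Δ/Δ tumours, against 186, 376 and 204 in Rheb1 fl/fl tumours, so the groups were far apart. The log2 fold change was -4.68 ± 1.80 (SE), with an adjusted p of 0.461 by the quasi-likelihood test and 0.037 by DESeq2. Neither Sox17 nor Erg had such a gap. Sox17, an arterial factor, had 0.846, 0.703 and 1.62 CPM in Cx3cr1-Rheb1 Δ/Δ tumours, against 0, 0 and 1.19 CPM in Rheb1 fl/fl tumours. Erg, an ETS factor that maintains endothelial identity, had 4.79, 4.99 and 3.87 CPM in Cx3cr1-Rheb1 Δ/Δ tumours, against 10.8, 0.0449 and 9.11 CPM in Rheb1 fl/fl tumours. In both genes the groups overlapped, and the adjusted p in edgeR was 0.872 for Sox17 and 0.95 for Erg.

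Icam2, an adhesion molecule of resting endothelium that leukocytes and platelets also carry, had no count in any Cx3cr1-Rheb1 Δ/Δ tumour, against 94, 30 and 32 counts in Rheb1 fl/fl tumours. Taking 3 counts over the group as the floor, its level was at least 45.2-fold lower in Cx3cr1-Rheb1 Δ/Δ tumours, a bound that covers counting error only. Without Rheb1 fl/fl replicate 35 the bound was 26.4-fold, and without Cx3cr1-Rheb1 Δ/Δ replicate 37 it was 27.6-fold. The adjusted p was 0.206 by the quasi-likelihood test and 0.00714 by the likelihood ratio test.

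The other junction and surface genes, most of which serve as general markers of endothelium, showed no common direction. Pecam1, encoding CD31, had 5.36, 11.7 and 13.2 CPM in Cx3cr1-Rheb1 Δ/Δ tumours, against 3.84, 3.06 and 14.4 CPM in Rheb1 fl/fl tumours. Cdh5, encoding VE-cadherin of the adherens junction, had 14.7, 6.97 and 5.60 CPM in Cx3cr1-Rheb1 Δ/Δ tumours, against 12.4, 21.1 and 31.5 CPM in Rheb1 fl/fl tumours. The Cdh5 groups overlapped through Cx3cr1-Rheb1 Δ/Δ replicate 26 and Rheb1 fl/fl replicate 35. The log2 fold changes were 0.51 ± 1.03 (SE) for Pecam1 and -1.25 ± 0.76 (SE) for Cdh5, with adjusted p of 0.927 and 0.671 in edgeR. The junctional protein gene Esam and the sialomucin gene Emcn had their highest value in a Cx3cr1-Rheb1 Δ/Δ tumour, Esam with 33.5 CPM in replicate 36 and Emcn with 13.2 CPM in replicate 37. Without that library the sign of each fold change turned. Cd34, a sialomucin of endothelium and progenitors, was highest in Rheb1 fl/fl replicate 35 with 92.9 CPM, and without this library its log2 fold change was 0.07, against -1.07 ± 0.79 (SE) with it. Its antisense neighbour Gm16897 overlaps it, and counts without strand do not separate them. Clec14a, a C-type lectin of tumour endothelium, had a log2 fold change of -0.39 ± 1.29 (SE).

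The 9 receptors held 6 negative and 3 positive fold changes, and in 0 of them did the groups separate. Kdr (VEGFR2), the main signalling receptor for VEGF, had 7.68, 25.6 and 1.83 CPM in Cx3cr1-Rheb1 Δ/Δ tumours, against 43.4, 14 and 16.9 CPM in Rheb1 fl/fl tumours. Both groups were widely spread and overlapped, as in most receptors. Flt1 (VEGFR1), which binds and holds back VEGF, was the most precisely measured of them. It had 35.4, 49.5 and 70.7 CPM in Cx3cr1-Rheb1 Δ/Δ tumours, against 46.3, 69.5 and 81.4 CPM in Rheb1 fl/fl tumours. The log2 fold change was -1.08 ± 0.93 (SE) for Kdr and -0.34 ± 0.40 (SE) for Flt1. For Kdr it was -0.44 without Rheb1 fl/fl replicate 35 and -2.38 without Cx3cr1-Rheb1 Δ/Δ replicate 36. Eng, the TGF-β coreceptor endoglin of angiogenic endothelium, had 19, 24.9 and 26.6 CPM in Cx3cr1-Rheb1 Δ/Δ tumours, against 1.5, 5.03 and 19.6 CPM in Rheb1 fl/fl tumours. Its log2 fold change was 1.43 ± 0.91 (SE) on counts but -0.10 on log2(TPM + 1), so the direction depended on the quantification. The angiopoietin receptor genes went opposite ways, Tek at 0.57 ± 1.45 (SE) and Tie1 at -1.31 ± 1.28 (SE) on the log2 scale. Flt4 (VEGFR3), Robo4 (a guidance receptor), Ptprb (the phosphatase VE-PTP) and Ramp2 (part of the adrenomedullin receptor) had log2 fold changes of -0.71, -1.57, 0.52 and -0.47. Over the 9 receptors the adjusted p in edgeR ran from 0.691 for Eng to 0.947 for Tek.

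Among the barrier and transport genes, the 2 members that were higher at an unadjusted p under 0.05 stand for opposite vessel states. Plvap, which encodes the diaphragm protein of fenestrated and leaky endothelium, had 30.3, 45.6 and 54.4 CPM in Cx3cr1-Rheb1 Δ/Δ tumours, against 4.22, 20.2 and 12.9 CPM in Rheb1 fl/fl tumours. Mfsd2a, the lipid transporter that keeps transcytosis low in the intact blood-brain barrier, had 87.4, 124 and 45.0 CPM in Cx3cr1-Rheb1 Δ/Δ tumours, against 35.7, 36.1 and 42.4 CPM in Rheb1 fl/fl tumours. The groups were apart in both genes, though replicate 37 of the Cx3cr1-Rheb1 Δ/Δ tumours came close to the Rheb1 fl/fl tumours for Mfsd2a. The log2 fold change was 1.80 ± 0.64 (SE; adjusted p = 0.413 in edgeR) for Plvap and 1.17 ± 0.42 (SE; adjusted p = 0.419) for Mfsd2a, and neither was called by the likelihood ratio test or DESeq2. In TPM, Plvap had 35.9, 35.3 and 42.3 in Cx3cr1-Rheb1 Δ/Δ tumours, against 5.16, 19.2 and 17.9 in Rheb1 fl/fl tumours, which kept the groups apart. Mfsd2a had 53.7, 55.6 and 18.6 TPM in Cx3cr1-Rheb1 Δ/Δ tumours, against 23.2, 19.4 and 28.1 TPM in Rheb1 fl/fl tumours, where the groups overlapped. Plvap shares 1819 bases with Gtpbp3 on the other strand, so reads of the 2 genes cannot be fully separated in these counts.

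Of the remaining barrier genes, Cldn5, the main claudin of brain endothelium, had 9.65, 16 and 24.6 CPM in Cx3cr1-Rheb1 Δ/Δ tumours, against 13.2, 8.40 and 9.05 CPM in Rheb1 fl/fl tumours. Its groups overlapped, and its log2 fold change was 0.71 ± 0.76 (SE). The tight junction gene Ocln, the organic anion transporter genes Slco1a4 and Slco1c1 and the efflux pump gene Abcb1a had log2 fold changes of -0.61, -0.21, -0.41 and -0.50, with SE from 0.71 to 1.26 and overlapping groups in each. Abcb1a has a related neighbour in Abcb1b, and whether reads were shared between them was not tested. Without Rheb1 fl/fl replicate 110, the signs of Ocln, Slco1a4 and Abcb1a turned, at 0.26, 0.90 and 0.33.

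The secreted proteins other than Tinagl1 had no common direction either. Vwf, the clotting protein stored in Weibel-Palade bodies, had 9.37, 16.5 and 21.2 CPM in Cx3cr1-Rheb1 Δ/Δ tumours, against 56.5, 12.5 and 41.7 CPM in Rheb1 fl/fl tumours, a log2 fold change of -1.23 ± 0.66 (SE; adjusted p = 0.633 in edgeR), or -0.82 without Rheb1 fl/fl replicate 35. Egfl7, an extracellular angiogenic factor, had 22.5, 31.3 and 57.5 CPM in Cx3cr1-Rheb1 Δ/Δ tumours, against 65.9, 19.1 and 10.2 CPM in Rheb1 fl/fl tumours. Each group of Egfl7 spanned much of the other, and its log2 fold change was 0.23 ± 0.69 (SE), or 1.31 without Rheb1 fl/fl replicate 35. Mmrn2, a ligand of Clec14a in the vessel wall, had a log2 fold change of 0.71 ± 1.02 (SE). Nos3, endothelial nitric oxide synthase, had only 99 counts over the 6 libraries and overlaps Atg9b on the other strand (1711 counts), so its -0.19 ± 1.56 (SE), or 0.67 without Rheb1 fl/fl replicate 35, carries little.

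**Figure D2:**
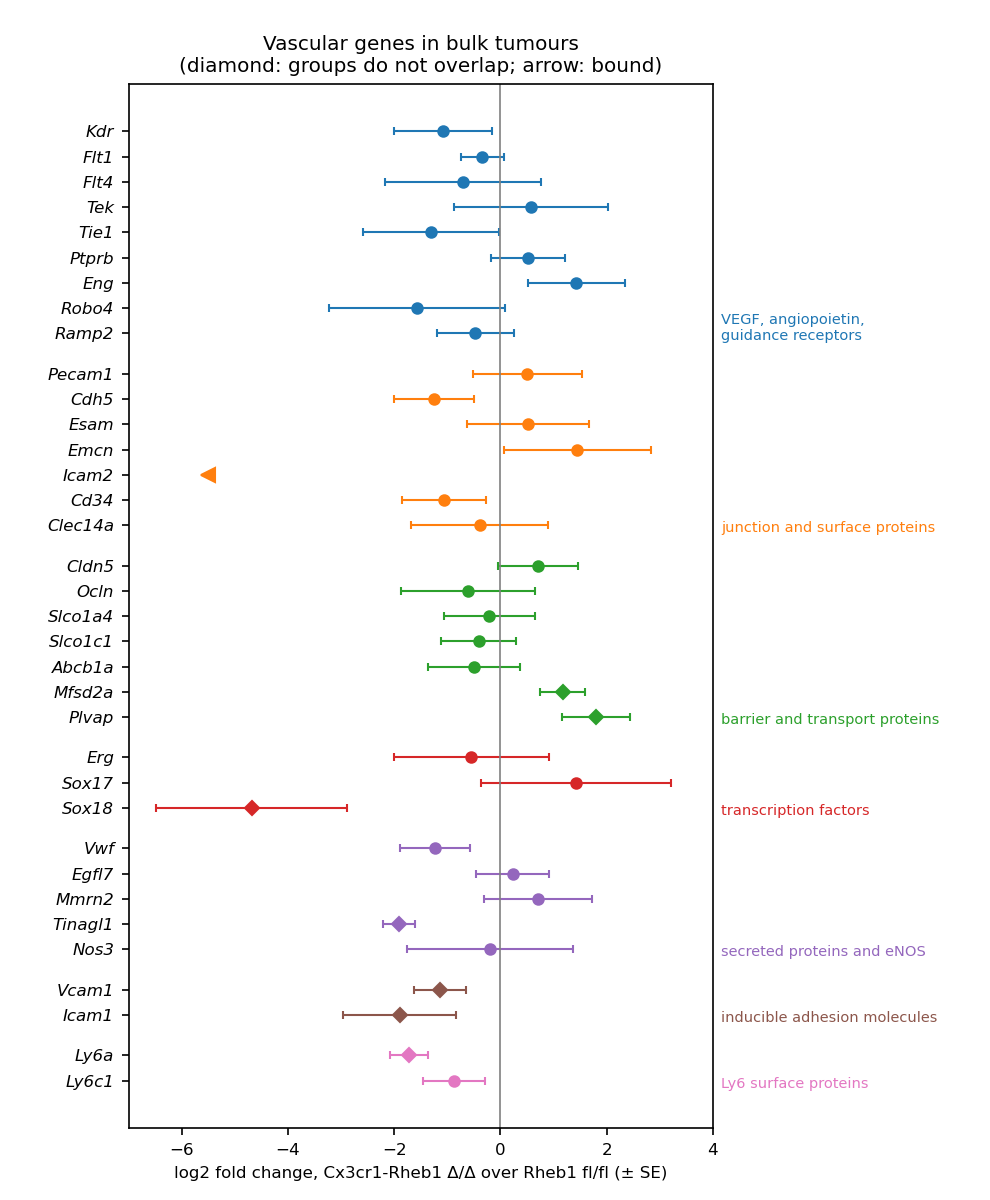
Log2 fold change of the 35 tested vascular genes in bulk tumours (horizontal axis; Cx3cr1-Rheb1 Δ/Δ over Rheb1 fl/fl, n = 3 each), by role, with bars of 1 SE; diamonds mark genes whose groups do not overlap, and the arrow marks the bound for Icam2. Tinagl1 at -1.91 and Ly6a at -1.72 have short bars, whereas general endothelial markers such as Pecam1 (0.51) and Cdh5 (-1.25) lie on both sides of 0.

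Across all 35 tested members, 23 fold changes were negative and 12 positive, with a median of -0.47, beside a median of 0.00 over all genes tested. The median was -0.83 without Cx3cr1-Rheb1 Δ/Δ replicate 36 and -0.20 without Rheb1 fl/fl replicate 110. The summed level of the 36 members was 565 to 805 CPM in Cx3cr1-Rheb1 Δ/Δ tumours and 935 to 1280 CPM in Rheb1 fl/fl tumours. When the inducible adhesion molecules, the Ly6 genes and Tinagl1 were set aside, a choice made after their values were seen, the sum of the other 30 members was 401 to 555 CPM in Cx3cr1-Rheb1 Δ/Δ tumours and 370 to 550 CPM in Rheb1 fl/fl tumours. These ranges overlap. The sum includes the higher Mfsd2a (85.6 CPM on average in Cx3cr1-Rheb1 Δ/Δ tumours and 38.1 CPM in Rheb1 fl/fl tumours) and Plvap (43.4 CPM in Cx3cr1-Rheb1 Δ/Δ tumours and 12.4 CPM in Rheb1 fl/fl tumours). It also includes Cd34, which had 92.9 CPM in Rheb1 fl/fl replicate 35, and no sum was taken without these genes. Of the 30 fold changes 18 were negative and 12 positive, with a median of -0.37, and Sox18 and Icam2 were among the negative ones.

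Other gene lists of the vessel wall were measured in the same libraries. Of 18 tested angiogenic ligands, 12 were negative (median -0.78), with 2 lower and 1 higher at an unadjusted p under 0.05. Vegfa, the principal VEGF, had a log2 fold change of -1.29 ± 0.39 (SE; adjusted p = 0.28 in edgeR), and Vegfb and Vegfc were at -0.67 and -0.83. The others at this level, named after their values were seen, were Angptl4 at -4.89 ± 0.93 (SE; adjusted p = 0.154 in edgeR) and Vegfd at 2.64 ± 1.04 (SE; adjusted p = 0.469). Of 20 vascular receptors and Notch pathway genes outside the members 16 were negative (median -0.42), with 0 under an unadjusted p of 0.05, and Nrp1, a VEGF coreceptor, was at -1.27 ± 0.58 (SE; adjusted p = 0.557 in edgeR). Of 14 further endothelial transcription factors 9 were negative (median -0.16) and 1 was lower at this level, Fli1, which myeloid cells also express, at -4.09 ± 1.40 (SE; adjusted p = 0.383 in edgeR). Of 18 further blood-brain barrier genes 11 were negative (median -0.33). The glucose transporter gene Slc2a1 was at 0.03 ± 0.27 (SE), and 2 were lower at an unadjusted p under 0.05, Abcg2 at -1.41 and Abcc4 at -1.14, both named after their values were seen. Of 13 pericyte and smooth muscle markers 5 were negative and 8 positive (median 0.25), with Rgs5 lower and Myh11 higher at that level. Myh11, named after its values were seen, had 0 CPM in every Rheb1 fl/fl tumour and 6.59 ± 5.4 CPM (mean, SD) in Cx3cr1-Rheb1 Δ/Δ tumours. It could be tested only through its counts in the latter. None of these lists held a gene that passed the quasi-likelihood test. The likelihood ratio test called 1 ligand lower (1.53% of all genes) and 1 pericyte or smooth muscle marker higher (0.722% of all genes).

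Markers of microglia, macrophages, T cells and NK cells were also lower in Cx3cr1-Rheb1 Δ/Δ tumours, whereas those of neurons, astrocytes and perivascular fibroblasts had no such shift. Of 20 microglia and macrophage markers all 20 had negative fold changes, 16 of them at an unadjusted p under 0.05 (median -1.80), and their summed level was 582 to 1300 CPM in Cx3cr1-Rheb1 Δ/Δ tumours and 2080 to 3310 CPM in Rheb1 fl/fl tumours. Of 15 interferon-gamma target genes outside the members all 15 were negative, 14 of them at that level (median -2.19), with sums of 997 to 2000 CPM in Cx3cr1-Rheb1 Δ/Δ tumours and 4130 to 4820 CPM in Rheb1 fl/fl tumours. The T and NK cell markers summed to 10.2 to 33.3 CPM in Cx3cr1-Rheb1 Δ/Δ tumours and 48.5 to 142 CPM in Rheb1 fl/fl tumours. Of 12 such markers 8 could be tested, and all 8 were negative, 3 of them at that level. None passed the quasi-likelihood test, and their levels were low. The study reported more CD4 and CD8 T cells in Cx3cr1-Rheb1 Δ/Δ tumours, by flow cytometry, tissue staining and an estimate from RNA (CIBERSORT). The sums above are not a measure of cell numbers. The NF-κB target genes went both ways, with 7 of 11 negative (median -0.43). Astrocyte markers had a median of -0.08, neuron markers 0.30 and perivascular fibroblast markers -0.08. No microglia, T cell, neuron or astrocyte marker of the lists was at 0 in all 6 bulk libraries, whereas the platelet genes Gp9 and Ppbp and the erythroid gene Slc4a1 were. The part of these cells in the values of Tinagl1, Ly6a, Vcam1, Icam1, Icam2 and Sox18 was not tested.

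**Figure D3:**
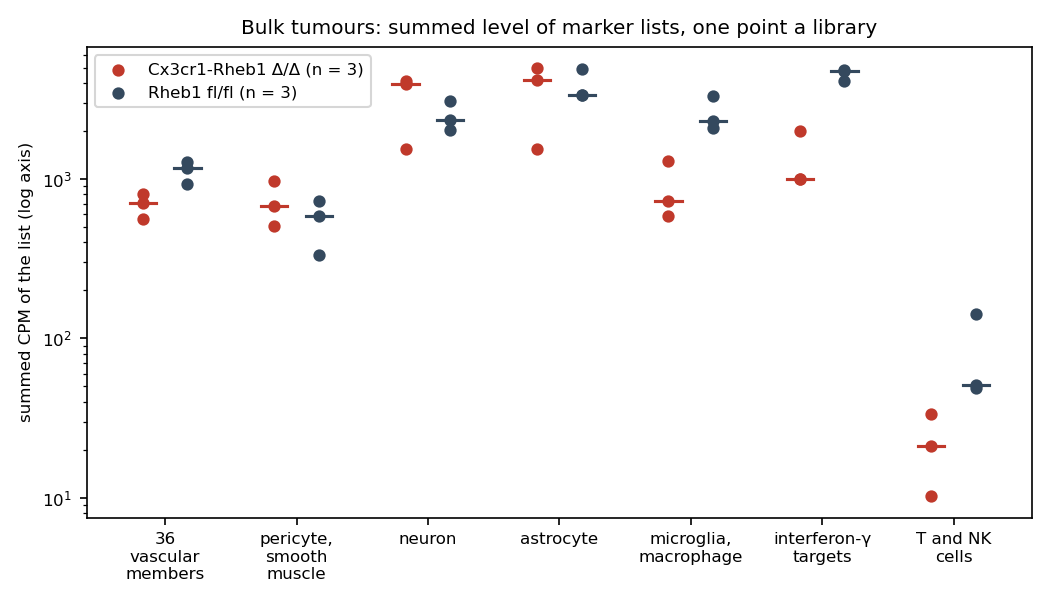
Summed CPM of marker lists in each bulk tumour library (vertical log axis), Cx3cr1-Rheb1 Δ/Δ tumours in red and Rheb1 fl/fl tumours in dark, with a bar at the median of 3 libraries. The 36 vascular members sum to 565 to 805 CPM in Cx3cr1-Rheb1 Δ/Δ tumours and 935 to 1280 CPM in Rheb1 fl/fl tumours, and the microglia and macrophage markers and the interferon-gamma targets are also lower in every Cx3cr1-Rheb1 Δ/Δ tumour.

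The sorted TAM-MG were then used to see which members occur in these cells. The endothelial members differed widely there. Sox18 had no count in any of the 5 libraries and Erg 1 count in all, while Tek, Plvap, Esam, Robo4, Clec14a and Sox17 were at 0 in 4 of 5 libraries. Vwf had 711 counts, all in Rheb1 fl/fl replicate 74, and Cdh5 74 counts in all. Other general endothelial markers were present in the sorted cells. Pecam1 had 7.22, 4.18 and 24.2 CPM in Cx3cr1-Rheb1 Δ/Δ TAM-MG, against 0 and 23.2 CPM in Rheb1 fl/fl TAM-MG. Flt1 had 12.8, 24.6 and 44.4 CPM in Cx3cr1-Rheb1 Δ/Δ TAM-MG, against 19.1 and 14.8 CPM in Rheb1 fl/fl TAM-MG. Kdr reached 18.9 CPM, Slco1c1 18.4 CPM and Emcn 9.97 CPM in the highest TAM-MG library. Higher still were Cd34 and Icam1. Cd34 had 909, 631 and 613 CPM in Cx3cr1-Rheb1 Δ/Δ TAM-MG, against 649 and 381 CPM in Rheb1 fl/fl TAM-MG. Icam1 had 684, 434 and 466 CPM in Cx3cr1-Rheb1 Δ/Δ TAM-MG, against 433 and 220 CPM in Rheb1 fl/fl TAM-MG. The microglia and macrophage markers of the list were all detected in these libraries and summed to 54900 to 57700 CPM in Cx3cr1-Rheb1 Δ/Δ TAM-MG and 41600 to 56500 CPM in Rheb1 fl/fl TAM-MG.

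TAM-MG were compared with bulk tumours on one scale over all 11 libraries. Of 36 members 12 were lower in TAM-MG (32.4% of all 21342 genes tested were lower) and 6 were higher (20.5% of all genes), by the quasi-likelihood test. The shares of members are thus close to those of all genes. Lower were Flt4, Tek, Ptprb, Cdh5, Clec14a, Mfsd2a, Plvap, Erg, Sox18, Vwf, Egfl7 and Mmrn2, and higher were Eng, Icam2, Cd34, Cldn5, Vcam1 and Icam1. Icam1 had 273 to 855 CPM in TAM-MG and 1.66 to 10.5 CPM in bulk tumours (log2 fold change 6.85 ± 0.35, SE, adjusted p = 8.41e-07 in edgeR). Cd34 had 473 to 1140 CPM in TAM-MG and 7.07 to 76.2 CPM in bulk tumours (log2 fold change 4.89 ± 0.57, SE, adjusted p = 6.16e-05). For Cdh5 the level was 0 to 1.70 CPM in TAM-MG and 4.66 to 26 CPM in bulk tumours (log2 fold change -4.80 ± 1.0, SE, adjusted p = 0.00262). For Pecam1, Emcn, Kdr, Tie1 and Slco1c1 no difference passed the test, with log2 fold changes of 1.06 ± 1.17, 0.70 ± 1.42, -0.58 ± 0.85, -0.86 ± 1.47 and -0.66 ± 0.98 (SE). Egfl7 had 2.21 to 7.61 CPM in TAM-MG and 8.40 to 54.1 CPM in bulk tumours (log2 fold change -2.57 ± 0.70, SE, adjusted p = 0.0104). Sorted living cells and fixed tumour sections differ in RNA quality and extraction as well as in cells, and these cannot be told apart. The median over all genes was -0.89, and scaling by library size alone moved it to -1.45 and ended the calls of Eng, Cldn5 and Vcam1.

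The genes that separated in bulk tumours thus fell into unlike groups by their level in TAM-MG, a description without a test. Icam1 and Vcam1 were higher in TAM-MG than in bulk tumours, with 66.8 to 129 CPM in TAM-MG and 17.1 to 113 CPM in bulk tumours for Vcam1. Icam2 was also higher, with 3.68 to 17.3 CPM in TAM-MG and 0 to 4.29 CPM in bulk tumours. Ly6a was similar in its range, with 37.4 to 268 CPM in TAM-MG and 57.2 to 284 CPM in bulk tumours (log2 fold change -0.32 ± 0.38, SE, adjusted p = 0.497 in edgeR). Tinagl1 ran from 6.54 to 99.5 CPM in TAM-MG and from 37.2 to 199 CPM in bulk tumours (log2 fold change -1.22 ± 0.67, SE, adjusted p = 0.14 in edgeR). Sox18 and Plvap were at 0 in all or most TAM-MG libraries.

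**Figure D4:**
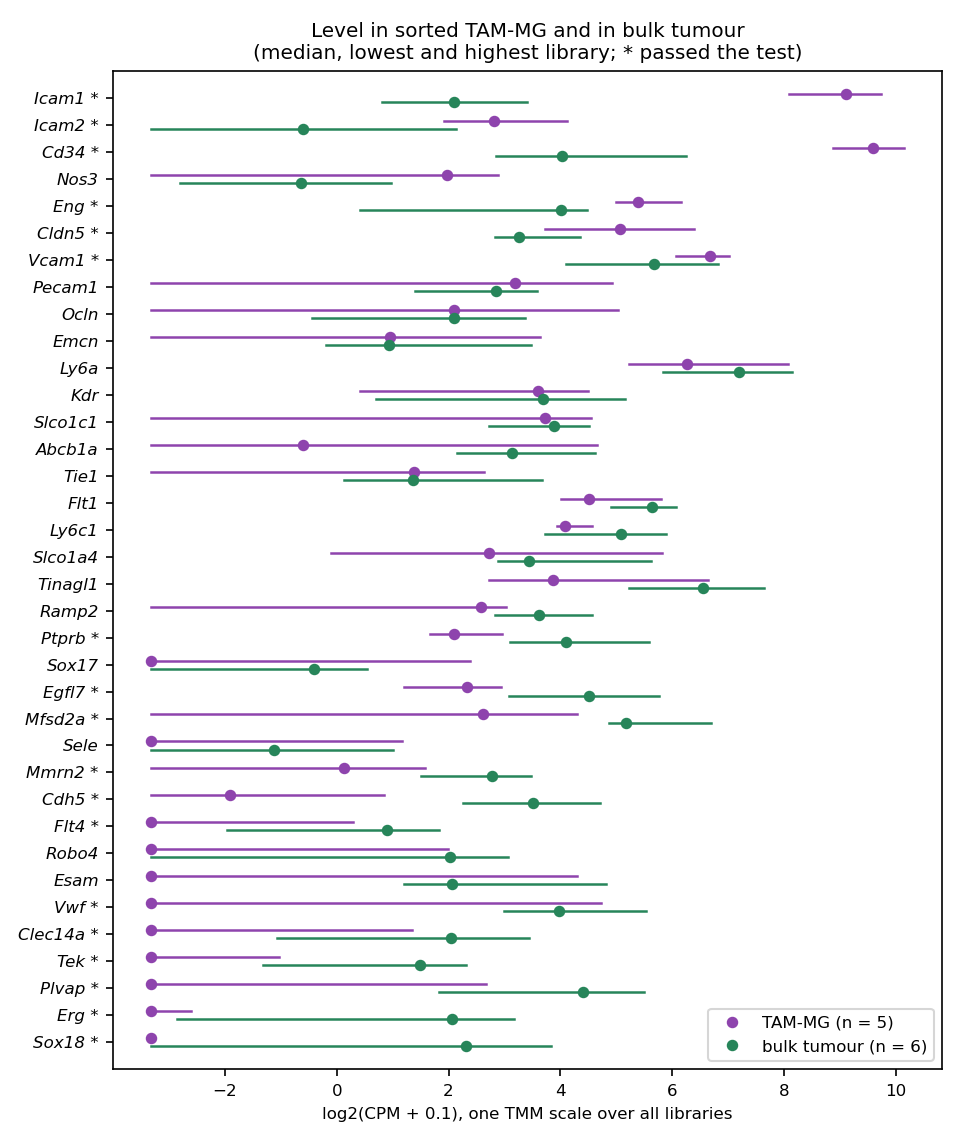
Level of the 36 vascular genes in sorted TAM-MG (purple, 5 libraries) and in bulk tumours (green, 6 libraries) as log2(CPM + 0.1) on one TMM scale; points are medians, lines run from the lowest to the highest library, and asterisks mark genes that passed the quasi-likelihood test. Icam1 and Cd34 stand far to the right in TAM-MG, with 273 to 855 and 473 to 1140 CPM, and Sox18 has no count in any TAM-MG library.

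Between genotypes within TAM-MG, 25 of 36 members could be tested, and 0 passed the quasi-likelihood test of edgeR, as did 0 of 14872 genes (0%). At an unadjusted p under 0.05 there were 0 members lower (2.30% of all genes) and 1 higher (5.47% of all genes), Cldn5. The likelihood ratio test called 0 members lower (0.471% of all genes) and 0 higher (1.18% of all genes), and DESeq2 called Cldn5 higher (2.59% of all genes). Cldn5 had 66.8, 42.7 and 26.6 CPM in Cx3cr1-Rheb1 Δ/Δ TAM-MG, against 11.1 and 12 CPM in Rheb1 fl/fl TAM-MG. The groups were apart, with a log2 fold change of 1.97 ± 0.56 (SE) and an adjusted p of 0.502 by the quasi-likelihood test and 0.0393 by DESeq2. All Cx3cr1-Rheb1 Δ/Δ libraries were above both Rheb1 fl/fl libraries in 4 of the 25 tested members (Cldn5, Slco1c1, Mmrn2 and Icam1). The same held for 2167 of 14872 genes, so such a separation was common. Other barrier genes were seen in the same libraries. Slco1c1 had 12.5, 10.4 and 18.4 CPM in Cx3cr1-Rheb1 Δ/Δ TAM-MG, against 8.89 and 0 CPM in Rheb1 fl/fl TAM-MG, and Slco1a4 had 0.669, 44.3 and 18.1 CPM in Cx3cr1-Rheb1 Δ/Δ TAM-MG, against 5.49 and 0.982 CPM in Rheb1 fl/fl TAM-MG. The 7 barrier and transport members summed to 89.8 to 103 CPM in Cx3cr1-Rheb1 Δ/Δ TAM-MG and 42.1 to 52 CPM in Rheb1 fl/fl TAM-MG. This sum includes Cldn5 itself, and no sum was taken without it. Of 6 tested fold changes 4 were positive, while Ocln was at -1.98 and Mfsd2a at -1.90 on the log2 scale. Of the general endothelial markers, Cdh5 and Plvap were near 0 in most of these libraries, and Pecam1 and Flt1 had the values given above. Whether endothelial material in the sort had a part in the value of Cldn5 was not tested.

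The members that were lower in bulk tumours were set beside their values in TAM-MG, although the bulk and TAM-MG libraries do not share mice by their labels. Vcam1 had 53.4, 80.4 and 72.6 CPM in Cx3cr1-Rheb1 Δ/Δ TAM-MG, against 104 and 104 CPM in Rheb1 fl/fl TAM-MG (log2 fold change -0.60 ± 0.30, SE, adjusted p = 0.601 in edgeR). Ly6a had 29.9, 58.3 and 82.6 CPM in Cx3cr1-Rheb1 Δ/Δ TAM-MG, against 64.6 and 216 CPM in Rheb1 fl/fl TAM-MG (log2 fold change -1.30 ± 0.63, SE, adjusted p = 0.584). The Vcam1 groups did not overlap, whereas those of Ly6a did. All Cx3cr1-Rheb1 Δ/Δ TAM-MG were lower in 3 of the 25 tested members, and in 1703 of 14872 genes. Without Rheb1 fl/fl replicate 78 the log2 fold change of Ly6a was -0.17, and without replicate 74 it was -1.91. Icam1 had the opposite sign to that in bulk tumours, at 0.69 ± 0.40 (SE, adjusted p = 0.689) on the log2 scale, with values from 0.30 to 1.28 when 1 library was left out. With libraries scaled to the same mean log CPM, its log2 fold change was only 0.08 (adjusted p = 0.962 in edgeR). Tinagl1 had 79.6, 11.4 and 6.99 CPM in Cx3cr1-Rheb1 Δ/Δ TAM-MG, against 5.52 and 46.7 CPM in Rheb1 fl/fl TAM-MG, and its groups overlapped. The other members with at least 10 counts in every TAM-MG library (Kdr, Flt1, Ptprb, Eng, Icam2, Cd34, Slco1a4, Egfl7 and Ly6c1) had adjusted p between 0.756 and 0.998. With 2 Rheb1 fl/fl libraries, a gene that missed the threshold here is not shown to be alike in both genotypes.

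Whether the genotypes differed in another way in TAM-MG than in bulk tumours was tested with an interaction term over all libraries. Of the members 0 passed the quasi-likelihood test, against 48 of 21342 genes (0.225%), and 3 passed the likelihood ratio test (Icam1, Icam2 and Vwf; 3.91% of all genes). The difference for Icam1 was 2.64 ± 0.60 (SE) on the log2 scale, higher in TAM-MG, with an adjusted p of 0.139 by the quasi-likelihood test and 0.00863 by the likelihood ratio test. For Vwf it rested on Rheb1 fl/fl TAM-MG replicate 74, which held all of its TAM-MG counts, and for Icam2 on bulk tumours without a count. For Ly6a, Vcam1 and Tinagl1 the differences were 0.44 ± 0.76, 0.58 ± 0.69 and 2.24 ± 1.33 (SE), with adjusted p in edgeR of 1.0, 0.925 and 0.553.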

How the data were processed

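RNA-seq libraries of 6 bulk GL261 tumours and 5 sorted TAM-MG samples (SmartSeq2 and Nextera XT) were analysed from the tables of their authors. The authors deposited raw counts per gene, obtained with STAR, and TPM estimated with Salmon, both on the Ensembl reference of GRCm38 that the study's methods name. Software versions are not given in the sources used here, and SmartSeq2 does not mark strand. The deposited bulk TPM hold 12719 genes, each with at least 1 TPM in 1 library or more, and 26 of the 36 members. The deposited TAM-MG counts and TPM end with an unnamed total (100% of the gene sum), which was left out. The labels' WT and Rheb1 KO were taken as the study's Rheb1 fl/fl control and its Cx3cr1-Rheb1 Δ/Δ mice. Of 50686 gene identifiers, 50376 had a symbol, and all members matched.

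Counts were tested with the quasi-likelihood test of edgeR 4.0.16 (R 4.3.3), after filterByExpr (minimum count 10, total 15) and TMM scaling, within bulk tumours, within TAM-MG and over all libraries. SE was derived from the F statistic. All p-values are two-sided and, where adjusted, were adjusted over all genes tested by Benjamini-Hochberg. They set a difference between groups against the spread between these libraries, which was estimated with information shared over genes. Alternatives were the likelihood ratio test, DESeq2 1.42.0, library-size scaling, scaling to the same mean log CPM, no filter, at least 10 counts in every library, limma 3.58.1 on log2(TPM + 1) and log2(TPM + 0.1), and leaving out each library. The test was also run on simulated counts with 200 genes changed. Its recovery there is not given here, and no conclusion is drawn from it. All 36 members are named, and from each other list the first 3 tested genes at most, beside genes marked as named after their values were seen. The members and the lists were chosen with earlier results of these data known. Promoters came from RefSeq (GRCm38.p6), of which 22 members had one matched by symbol.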

Additional observations from a re-analysis of the deposited data

How the results depend on the processing

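In bulk tumours, 3 members were called lower with the likelihood ratio test, 3 with DESeq2, 2 without a filter and 2 with at least 10 counts in every library, against 0 with the quasi-likelihood test, and 0 without any single library. Tinagl1 and Ly6a were among the members called in each of these 4 settings. Over all genes the calls were 260 lower and 123 higher with the likelihood ratio test, 330 and 140 with DESeq2, 85 and 17 without a filter, 54 and 8 with at least 10 counts, 1 and 1 by limma on log2(TPM + 1), 16 and 11 on log2(TPM + 0.1), and from 0 to 7 lower and 0 to 1 higher without one library. At an unadjusted p under 0.05 the members lower were 3 by limma on log2(TPM + 0.1), and those higher were 1 by limma with either pseudocount and 1 to 4 without one library. The members' median was -0.17 on log2(TPM + 1) and from -0.83 to -0.20 without one library.

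In TAM-MG, 1 member was called higher by DESeq2. Over all genes the calls were 70 lower and 175 higher with the likelihood ratio test, 88 and 385 with DESeq2, and 6 and 3 by limma on log2(TPM + 0.1). Members at an unadjusted p under 0.05 were 2 lower with the likelihood ratio test and with the same mean log CPM, 1 without a filter, with at least 10 counts and by limma with either pseudocount, and 0 to 1 without one library. Those higher were 2 with the likelihood ratio test and by limma with either pseudocount, and 1 to 4 without one library. The median was -0.22 with the same mean log CPM and 0.12 to 1.95 without one library, the highest without Rheb1 fl/fl replicate 78. For the difference of the genotype effect, members called were 1 lower and 2 higher with the likelihood ratio test, 1 lower and 3 higher with DESeq2, and 0 to 1 lower without one library. All genes called were 835 and 1210 with these tools, 76 without a filter, 3 with at least 10 counts, and 1 to 361 without one library. Between TAM-MG and bulk tumours, members called higher were 3 with library size only and 3 to 6 without one library, and those called lower were 5 with at least 10 counts in every library, where all genes gave 2292 lower and 2279 higher. The stricter filter tests fewer genes and drops members at 0, and the cause of the other shifts was not tested.

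Of the bulk fold changes, 14 of 35 members changed sign at least once. Without one library, the log2 fold change ranged from -0.05 to 1.13 for Tek, -0.45 to 0.92 for Ptprb, -1.61 to 1.37 for Esam, -0.15 to 2.00 for Emcn, -2.07 to 0.07 for Cd34, -1.99 to 0.16 for Clec14a, -1.17 to 0.26 for Ocln, -1.57 to 0.90 for Slco1a4, -0.96 to 0.33 for Abcb1a, -0.24 to 1.31 for Egfl7 and -2.29 to 0.67 for Nos3. On log2(TPM + 1) and log2(TPM + 0.1) Eng was at -0.10 and -0.44, Esam at -0.16 and -0.27 and Ocln at 0.34 and 1.02, while Slco1c1 was at 0.35 on the first and Tie1 at 0.01 on the second. In TAM-MG, 8 of the 14 members that reached 10 counts in all 5 libraries, a limit set after the data were seen, changed sign. Without one library the ranges were -0.14 to 0.64 for Ptprb, -0.02 to 0.57 for Eng, -0.83 to 0.43 for Icam2, -0.82 to 0.93 for Egfl7, -1.5 to 2.57 for Tinagl1 and -0.09 to 0.27 for Ly6c1. With the same mean log CPM, Ptprb was at -0.19, Eng at -0.22, Icam2 at -0.54, Cd34 at -0.13, Tinagl1 at -0.19 and Ly6c1 at -0.42. On log2(TPM + 1) and log2(TPM + 0.1) Flt1 was at -0.04 and -0.03, Icam2 at -0.13 and -0.17 and Tinagl1 at -0.22 and -0.27.

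No paired analysis was possible because the groups share no replicate numbers. The spread between replicates (biological coefficient of variation, 0.801 for the bulk libraries and 0.992 for TAM-MG) with 2 or 3 libraries a group limits which differences can pass the test. Many members had few counts and wide errors.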

Other observations

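Other vessel-related genes were looked at in TAM-MG. Of the 19 angiogenic ligands, 7 had no count in any of the 5 TAM-MG libraries (Vegfc, Vegfd, Angpt1, Slit2, Slit3, Sema3a and Gdf2), and 9 had enough counts to be tested. Vegfb was at -0.83 ± 0.79 (SE) on the log2 scale, and 1 ligand was higher in Cx3cr1-Rheb1 Δ/Δ TAM-MG at an unadjusted p under 0.05, Pdgfb at 1.83 ± 0.56 (SE; adjusted p = 0.506 in edgeR), named after its values were seen. The summed level of the ligands was 178 to 185 CPM in Cx3cr1-Rheb1 Δ/Δ TAM-MG and 47.8 to 131 CPM in Rheb1 fl/fl TAM-MG. Of this, Pdgfb averaged 127 CPM in Cx3cr1-Rheb1 Δ/Δ TAM-MG and 35.8 CPM in Rheb1 fl/fl TAM-MG, and of the 9 tested ligands 4 were negative and 5 positive (median 0.30). Pericyte markers were scarce in the sorted cells, where Pdgfrb, Kcnj8, Abcc9, Des, Myh11 and Cnn1 had no count.

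The interferon-gamma target genes outside the members summed to 2540 to 3140 CPM in Cx3cr1-Rheb1 Δ/Δ TAM-MG and 3700 to 3910 CPM in Rheb1 fl/fl TAM-MG, with 11 of 15 fold changes negative and a median of -0.36. The NF-κB target genes summed to 2910 to 3860 CPM in Cx3cr1-Rheb1 Δ/Δ TAM-MG and to 1140 and 5480 CPM in the Rheb1 fl/fl TAM-MG libraries, so that the 2 Rheb1 fl/fl libraries lay on either side of all others.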
